A study of Mus musculus with 2 samples.

Results

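Broad domains of histone H3 lysine 9 acetylation (H3K9ac) over genes were described in leukemic mouse spleen cells that differ in the form of the repressor GFI1. A domain was a region of the authors' table of 3.75 kb or more that overlaps a gene on chromosomes 1 to 19, with chromosome 15 left out. How regions were called is not described in the sources used, so their length may itself depend on the reads. The rule used length, position and annotation, and no level value. It took 645 of 20615 regions, which is 3.13% of all regions and 4.62% of the 13946 regions that overlap a gene on the same chromosomes. The 645 domains carried 644 gene symbols. Gene names stood at 581 domains, and clone names, locus names or symbols turned into dates at the other 64.

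H3K9ac was measured by chromatin immunoprecipitation and sequencing (ChIP-seq) with 1 antibody from Active Motif, in 1 library per genotype. The GFI1-36N library came from mice labelled Gfi1 36N/N-Nup98/HoxD13, and the GFI1-36S library from mice labelled Gfi1 36S/S-Nup98/HoxD13. Both groups carried the NUP98/HOXD13 fusion and a human GFI1 cDNA, which has asparagine (36N) or serine (36S) at residue 36. Both were whole spleens after lysis of red cells, with no input library used here, and the promoter of the transgene and the number of mice behind each library are stated in none of the sources used. With 1 library per genotype there is no replicate check, no test of the genotypes and no p-value; the 95% intervals below cover counting error only. In such bulk chromatin, fewer cells that carry the mark and less of the mark per cell cannot be told apart. Nor can either be told apart from a difference between the libraries in the immunoprecipitation itself.

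H3K9ac is set by acetyltransferases of the GCN5 and PCAF kind, is read by bromodomain and YEATS proteins, and marks the first nucleosomes of transcribed genes and active enhancers. GFI1 is a zinc finger protein that recruits histone deacetylases and the demethylase LSD1 to its target genes in blood progenitors. The 36N form is a human variant linked to a raised risk of acute myeloid leukemia, and the comparison asks where acetylation differs between the GFI1 forms.

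The 250 bases before the transcription start of 7 genes with a domain are printed to show the sequence at the members described below, not a typical domain. Sequences are from RefSeq on GRCm38.p6, read 5′ to 3′ on the gene's strand, with each CpG in capitals. They were chosen at the extremes, for the highest difference (Hexa), a myeloid regulator (Cebpa), a CpG-poor start above 0 (Fcer1g), the highest density among named genes (Dyrk1a, first start), the longest domain (Rbm38) and 2 of the lowest differences (Epor and Tmcc2, internal start).
Hexa, chr9:59539290-59539539, plus strand: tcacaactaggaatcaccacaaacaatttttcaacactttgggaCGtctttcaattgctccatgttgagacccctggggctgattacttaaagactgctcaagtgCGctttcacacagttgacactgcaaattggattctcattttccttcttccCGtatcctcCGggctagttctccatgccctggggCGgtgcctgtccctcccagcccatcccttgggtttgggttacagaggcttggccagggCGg
Cebpa, chr7:35119043-35119292, plus strand: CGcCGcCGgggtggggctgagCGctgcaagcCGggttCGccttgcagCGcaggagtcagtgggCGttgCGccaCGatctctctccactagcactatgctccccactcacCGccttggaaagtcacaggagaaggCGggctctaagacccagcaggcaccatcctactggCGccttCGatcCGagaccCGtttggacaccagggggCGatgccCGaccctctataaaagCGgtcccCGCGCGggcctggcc
Fcer1g, chr1:171234350-171234599, minus strand: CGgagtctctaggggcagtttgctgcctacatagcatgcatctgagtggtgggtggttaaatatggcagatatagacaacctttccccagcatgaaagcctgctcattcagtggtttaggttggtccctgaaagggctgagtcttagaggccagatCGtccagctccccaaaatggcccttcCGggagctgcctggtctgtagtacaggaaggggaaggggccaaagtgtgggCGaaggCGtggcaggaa
Dyrk1a, chr16:94569956-94570205, plus strand: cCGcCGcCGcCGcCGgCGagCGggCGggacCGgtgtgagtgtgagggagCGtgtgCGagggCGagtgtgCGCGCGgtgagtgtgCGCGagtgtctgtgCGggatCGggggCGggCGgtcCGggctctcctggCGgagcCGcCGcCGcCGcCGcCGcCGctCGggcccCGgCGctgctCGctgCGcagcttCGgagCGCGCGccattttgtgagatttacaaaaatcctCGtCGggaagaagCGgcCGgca
Rbm38, chr2:173021652-173021901, plus strand: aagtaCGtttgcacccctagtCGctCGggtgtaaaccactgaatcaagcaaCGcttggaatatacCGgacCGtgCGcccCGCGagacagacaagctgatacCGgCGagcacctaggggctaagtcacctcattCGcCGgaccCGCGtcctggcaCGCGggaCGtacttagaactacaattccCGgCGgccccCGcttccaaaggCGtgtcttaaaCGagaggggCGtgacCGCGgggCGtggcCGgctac
Epor, chr9:21963577-21963826, minus strand: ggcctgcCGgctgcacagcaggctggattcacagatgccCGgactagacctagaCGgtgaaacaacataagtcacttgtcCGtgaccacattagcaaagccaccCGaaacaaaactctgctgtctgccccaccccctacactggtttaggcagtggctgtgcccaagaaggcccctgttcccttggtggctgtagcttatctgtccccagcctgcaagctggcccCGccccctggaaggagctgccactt
Tmcc2, chr1:132367949-132368198, minus strand: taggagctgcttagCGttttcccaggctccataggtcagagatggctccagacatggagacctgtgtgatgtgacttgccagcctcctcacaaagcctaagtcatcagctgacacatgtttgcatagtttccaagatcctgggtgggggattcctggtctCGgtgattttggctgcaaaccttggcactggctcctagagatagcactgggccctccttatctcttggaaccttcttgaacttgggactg
The Dyrk1a stretch holds 43 CpG, the Rbm38 stretch 28 and the Cebpa stretch 22. Those of Hexa and Epor hold 6 each, that of Fcer1g holds 5, and that of Tmcc2, whose domain reaches 152 bp before this start, holds 2. A GFI1 core (AATCAC) was found in the promoters of Hexa and Tmcc2, and a GATA motif (AGATAA) in those of Epor and Tmcc2, by a search of both strands from 250 bases before to 50 after the start. Such a match is a description of the letters and not a site.

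Nearly all domains were of similar length. There were 190 domains at 3.75 kb, 166 at 3.9 kb, 135 at 4.05 kb, 99 at 4.2 kb, 45 at 4.35 kb and 6 at 4.5 kb, which makes 641 of 645. The remaining 4 were longer, so the minimum cuts the upper end of a continuous run of lengths. Just inside it lay Tram1 and Fam168b at 3.75 kb, with differences of −0.51 and −0.59. Just outside lay Sgk3 and Cops5 at 3.6 kb, with differences of −0.61 and −0.58. The 211 gene-overlapping regions of 3.6 kb had a median difference of −0.76, against −0.79 at 3.75 kb.

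The longest domain, 18900 bp on chr2:173021401-173040300, covered the whole of Rbm38, a gene for an RNA-binding protein that is a p53 target. It started 501 bp before the transcription start and ran 18398 bp past it. Rbm38 had 1162 reads in the 36N library and 2498 in the 36S library (62.6 and 132.2 per kb), a difference of −1.08 (−1.18 to −0.98). The Nt5c3 domain of 8100 bp overlapped the gene of a pyrimidine nucleotidase by 17.8% of the gene's length and did not contain its start. It had 422 reads (36N) and 980 reads (36S), a difference of −1.19 (−1.36 to −1.02). The domain of 7050 bp assigned to Gm15850 also overlaps Kif21b, a kinesin gene, with 516 and 623 reads in 36N and 36S (−0.25, interval −0.42 to −0.07). So the 3 long domains with a RefSeq gene beneath them all had fewer reads in 36N, those of Rbm38 and Nt5c3 by more than 1 log2 unit.

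**Figure D1:**
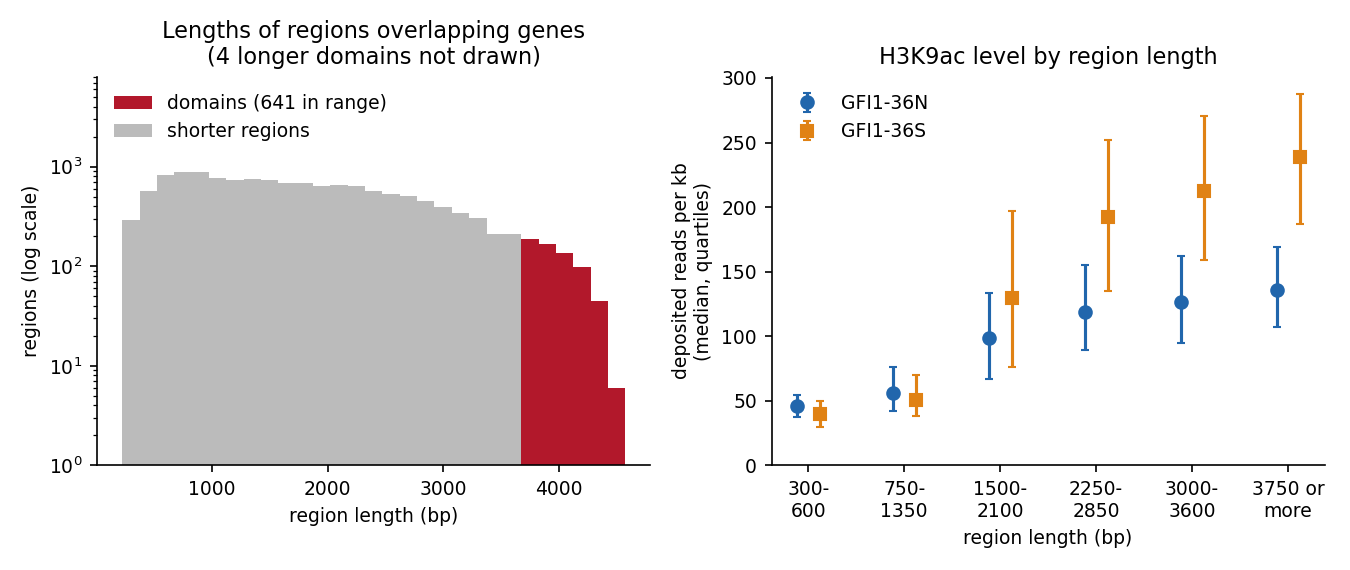
Left, number of gene-overlapping regions (log scale) by length in bp on the 18 chromosomes used, with the 641 domains of 3.75 to 4.5 kb in red. Right, median and quartiles of deposited reads per kb by length class for the GFI1-36N and GFI1-36S libraries: the 36N medians go up to 136.1 and the 36S medians to 238.5 in the domains.

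Reads per kb stood higher in domains than in shorter regions in both libraries. The domains had a median of 136.1 reads per kb in the 36N library (quartiles 107.0 and 169.3) and 238.5 in the 36S library (186.9 and 287.9). Shorter gene-overlapping regions had medians of 79.6 (36N) and 91.9 (36S). Those of 3000 to 3600 bp came close to the domains, with 126.5 (36N) and 212.3 (36S). At the length minimum the order was the other way. Median reads per kb were 172.8 in domains of 3.75 kb and 191.8 in regions of 3.6 kb. The domains held 11.7% of the 36N reads in regions and 12.97% of the 36S reads, on 7.93% of the bases in regions. Reads per domain had a median of 537 in 36N (lowest 131) and 931 in 36S (lowest 233). Over all regions the libraries held 3292869 reads (36N) and 4989632 reads (36S). Across the 645 domains the reads per kb of the libraries had a Spearman rho of 0.83, which describes points that share sequence and length and is not a replicate agreement.

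Level went up with length in both libraries, and more so in 36S. In the 1681 regions of 300 to 600 bp the medians were 45.8 reads per kb in 36N and 40.0 in 36S. The median difference (36N minus 36S, log2, as deposited) was 0.18 in that class, 0.10, −0.52, −0.71 and −0.75 in the next classes, and −0.78 in the domains. Within the domains, length and difference had a Spearman rho of −0.02.

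Among named genes, Dyrk1a had the densest domain. DYRK1A is a kinase encoded in the Down syndrome region, and its domain (chr16:94568101-94572600) had 1569 reads in 36N and 2354 in 36S, or 355.2 and 523.1 reads per kb, with a difference of −0.56 (−0.65 to −0.47). The next were Ddx6, an RNA helicase of mRNA decay, with 334.9 reads per kb in 36N and 519.0 in 36S, and Hnrnpa0, an RNA-binding protein gene, with 314.4 and 527.9. Gabpb1, a subunit of an ETS-family activator, had 312.4 and 523.7 reads per kb in 36N and 36S, and Cul1, the scaffold of SCF ubiquitin ligases, had 301.4 and 506.9. Wac, Baz2b, Ier5, Ncor1 and Uqcrh complete the 10 densest, and all 10 had fewer reads in 36N, with differences of −0.91 (Ncor1, a nuclear receptor corepressor that binds histone deacetylases) to −0.51 (Baz2b, a bromodomain protein). A pair of clone-named domains stood far above all of these. AC242409.1 had 13372 reads in 36N and 13113 in 36S, and Gm10722, at 7950 bp one of the 4 long domains, had 11312 and 11113, with differences of 0.05 each. No RefSeq gene lies beneath either, and the share of their reads that comes from near-identical copies elsewhere was not tested.

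Most domains contained the start of a gene. The RefSeq table of transcription starts has an entry for the assigned gene of 507 domains, and 483 of these (95.3%) contained it. In shorter gene-overlapping regions the share was 61.0% of 10235, and it went up with each length class, from 12.8% at 300 to 600 bp to 89.7% at 3000 to 3600 bp. Any start of the table lay in 535 domains, 82.9% of all 645, which is a lower limit because the table does not hold every gene. All 17 domains of chromosome 18, among them Hspa9 and Nr3c1, were without a start in the table. In 160 of the 535 (29.9%), starts of both strands lay in the same domain, against 16.1% of the 7028 shorter regions with a start. That share too went up with each length class, from 3.89% at 300 to 600 bp to 27.5% at 3000 to 3600 bp. Such 2-way starts included Ncor1 with Pigl, and Uqcrh with Lrrc41. Domains with starts on both strands had a median difference of −0.82, those with starts on 1 strand −0.78, and the 110 with no start in the table −0.75. The 110 include the 17 of chromosome 18 and are not shown to lack a start. Length itself raises the chance of holding a start, and its part in these shares was not tested.

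Domains reached farther into the gene than before it. In the 311 domains with a single start, the domain began a median of 1370 bp before the start and ended 2633 bp after it, and 269 of them (86.5%) reached farther downstream. In the 5229 shorter regions with a single start the medians were 623 bp and 1269 bp, and the share was 86.5% too. The position of the start, 34.1% of the way along the domain, was close to the 32.7% in shorter regions. So the domains were wider on both sides of the start, with the same lean.

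**Figure D2:**
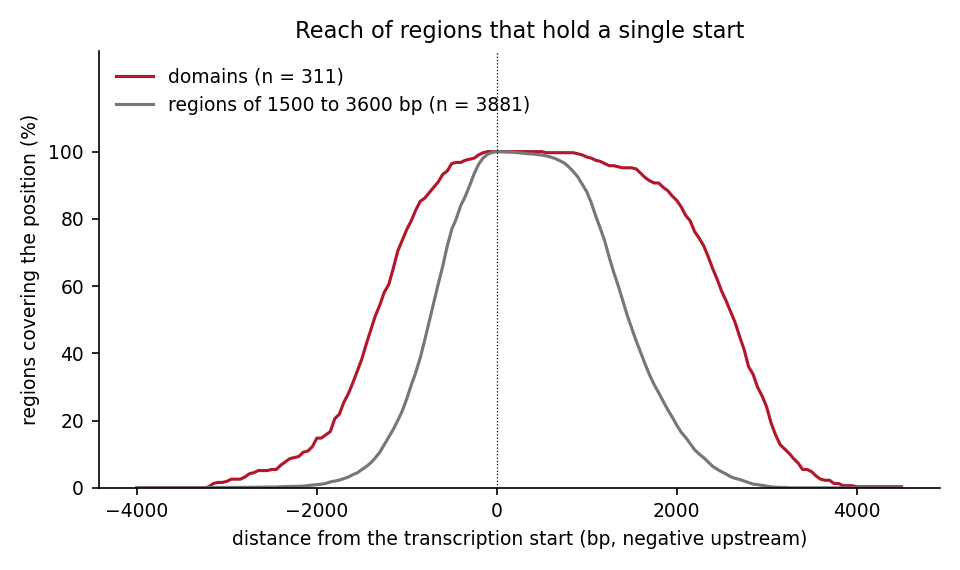
Percent of regions that cover each position around the transcription start (bp, negative is upstream), for 311 domains (red) and 3881 regions of 1500 to 3600 bp (grey) that hold a single start. Both curves lean downstream, and the domains reach farther on either side.

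Where the assigned gene matched RefSeq, a domain covered a median of 9.91% of it, and 28 domains covered 90% or more. These compact genes included Cebpa (93.2%), Id1, Ier3, Ier5, Gadd45a, S100a9, Ngp, Ccrl2, Rpl10a and Rpl27. Domains over Rps12, Rpl13a and Rpl27a also spanned small nucleolar RNA genes that lie in the introns of these ribosomal protein genes. In 24 domains the assigned gene has a start in the table but not in the domain. Some of these lay inside the gene, as for Runx2 and Chid1. Others held the start of another gene. The domain assigned to Epo, the erythropoietin gene, held the start of Gnb2 and had 635 and 1273 reads in 36N and 36S. The domain assigned to Zfp652 held the start of Phospho1, and that assigned to Cx3cr1 held the start of Csrnp1. The domain assigned to Olfr56, an odorant receptor gene, lies over Ifi47, an interferon-inducible GTPase gene. For these the assigned symbol is not the gene under the mark.

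Starts under domains were rich in CpG. The 859 RefSeq promoters (250 bases before to 50 after a start) in domains had a median GC content of 65.3% and a median CpG observed over expected ratio of 0.87. For 9282 promoters in shorter regions these were 61.7% and 0.78, and for all 32851 RefSeq promoters they were 52.7% and 0.38. Of the promoters in domains 6.75% had a ratio under 0.4, against 10.5% in shorter regions and 51.4% of all. The GC box GGGCGG, on either strand, was in 73.7% of promoters in domains, 66.3% in shorter regions and 35.7% of all. The ETS core CCGGAAG was in 18.7%, 20.0% and 8.86%, and the CCAAT box in 39.6%, 36.5% and 37.4%. The GFI1 core AATCAC was in 6.17% of promoters in domains, 7.56% in shorter regions and 10.4% of all, and AGATAA in 4.77%, 5.66% and 11.2%. Domains and shorter regions differed little by these motifs beside their common distance from the table as a whole; the motifs were counted wherever they stood, overlaps with each other included.

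The 22 domains whose starts in the table were all CpG-poor included several genes of differentiated blood cells, on both sides of the median. Starts missing from the table are not counted: Fbl and Mcart1 are among the 22 only by the starts of Gm31024 and Gm46852. The 22 had a median difference of −0.62 (quartiles −1.21 and −0.44), against −0.79 (−0.95 and −0.65) for the 513 domains with a CpG-rich start. Of the 22, 7 (31.8%) were lower in 36N by 1 log2 unit or more, against 89 of 513 (17.3%) and 14.1% of all regions. Yet 13 of the 22 (59.1%) lay above the trend with level that is described below, against 39.6% of the 513. The 22 were also sparser, with median reads per kb of 99.6 in 36N and 190.8 in 36S, against 139.2 and 241.9. At the low end lay Tmcc2, Epor, Ccrl2, Lgals9 (galectin-9) and Igtp, an interferon-inducible GTPase gene. At the high end lay Fcer1g, the signalling chain of Fc receptors, with 428 reads in 36N and 384 in 36S (0.18, interval −0.02 to 0.39), then Laptm5, a lysosomal protein gene of blood cells, with 402 and 453 (−0.15), and Pik3cd, a leukocyte lipid kinase, with 320 and 393 (−0.27). Ngp and S100a9, granule and calcium-binding protein genes of neutrophils, were at −0.58 and −0.45.

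Most domains had fewer reads in the 36N library. The median difference was −0.78 (quartiles −0.95 and −0.62, SD over domains 0.34), against −0.44 in shorter gene-overlapping regions (SD 0.83) and −0.40 over all regions. Of 645 domains 627 were below 0 and 18 above 0 (2.79% of domains), where 33.3% of all regions and 31.9% of the shorter ones were above 0. The counting interval lay wholly below 0 at 608 domains, held 0 at 27 and lay wholly above 0 at 10. Over all regions these shares were 47.2% below and 13.4% above. Those regions had medians of 83 reads in 36N and 95 in 36S, against 537 and 931 in domains. Their counting error is larger, so the shares are not at like depth. Of the 1467 gene-overlapping regions of 3000 to 3600 bp, 88 were above 0. Intervals of 1324 of these lay wholly below 0 and of 49 wholly above 0. By a rule of size, 1 log2 unit, 119 domains (18.4%) were lower in 36N, against 14.1% of all regions and 11.9% of the shorter ones. In regions of 3000 to 3600 bp, the class next to the domains, the share was 18.1%, close to that of the domains. No domain was higher by as much, against 7.49% of all regions and 0.409% of those of 3000 to 3600 bp. The highest domain, Hexa, was at 0.999. At 38 domains the whole interval lay below −1.

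How the values were scaled set these counts. Taken relative to the median region, 3 domains were higher and 18 lower by 1 log2 unit, with a median of −0.39. With that scaling 14.5% of the shorter regions were higher and 3.83% lower, so the share of domains that were lower (2.79%) no longer stood above that of the shorter regions. The difference also moved with the level over all regions, and a lowess trend on the mean level stood near the domains' own median. The distance from that trend, called the level-adjusted difference below, had a median of −0.04 (quartiles −0.21 and 0.11), with 265 domains above the trend. That is 41.1% of domains, where 48.4% of all regions lay above it. After this adjustment 5 domains were higher and 5 lower by 1 log2 unit, against 8.12% and 8.3% of all regions. Of the 1467 regions of 3000 to 3600 bp, 31 were higher and 36 lower. Quantile normalization gave 5 domains higher and 7 lower, where 9.16% of the shorter regions were higher and 6.12% lower.

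**Figure D3:**
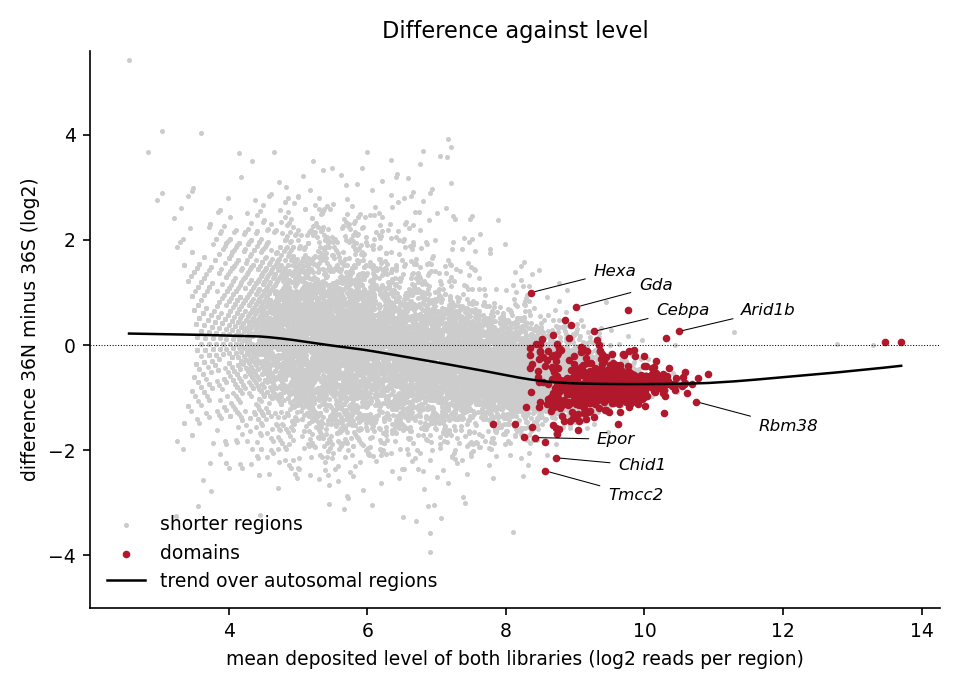
Difference 36N minus 36S (log2, as deposited) against the mean deposited level (log2 reads per region) for domains (red) and shorter gene-overlapping regions (grey), with the trend over autosomal regions. The domains lie around the trend near −0.78; Hexa, Gda, Cebpa and Arid1b lie above 0, and Tmcc2, Chid1, Epor and Rbm38 below −1.

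Density ran with the spread among domains. In the 20% of domains with the lowest mean reads per kb, 29.5% were lower in 36N by 1 log2 unit and the SD was 0.54. In the next 4 groups of the same size the shares were 24.03%, 16.3%, 15.5% and 6.98%, with SDs of 0.32, 0.23, 0.26 and 0.23. By chromosome the median difference lay between −0.85 (chromosome 19) and −0.70 (chromosome 18). Chromosome 18 had 0 of 17 domains lower by 1 log2 unit, and chromosome 1 had 14 of 43. The 42 regions on chromosome 15 that would otherwise meet the rule had a median of −1.25, with 34 lower by 1 log2 unit.

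Hexa had the highest difference of all domains. It encodes the alpha subunit of lysosomal hexosaminidase, and its domain on chr9:59538901-59542800 had 457 reads in 36N and 233 in 36S (119.4 and 59.7 per kb), a difference of 0.999 (0.77 to 1.23). Gda, the guanine deaminase gene, had 655 and 404 reads in 36N and 36S (0.72, interval 0.54 to 0.91), and another region inside Gda had 62 and 36 (0.81, interval 0.20 to 1.45). L3mbtl3, a reader of methylated lysines, had 535 and 390 reads (0.48, interval 0.29 to 0.67). Each of the 3 had an interval wholly above 0.

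Regulators of transcription and chromatin stood next. Runx2, a Runt family factor, had 551 reads in 36N and 432 in 36S in an internal domain (chr17:44733451-44737200; 0.38, interval 0.19 to 0.56). Its 7 other regions went both ways, at 0.61, 0.57, 0.25, 0.17, −0.48, −0.70 and −1.41. Cebpa, the factor that drives granulocyte and monocyte fate, had 663 reads in 36N and 564 in 36S over almost the whole gene (chr7:35117701-35121750; 0.26, interval 0.10 to 0.42). Arid1b, a subunit of BAF remodelling complexes, had 1550 and 1320 reads in 36N and 36S at its start (0.26, interval 0.15 to 0.37). The 4 other Arid1b regions went both ways: 38 reads in 36N and 21 in 36S (0.88, interval 0.08 to 1.73), 50 and 32 (0.67, interval 0.0019 to 1.36), 21 and 35 (−0.71, interval −1.56 to 0.11), and 163 and 333 (interval −1.28 to −0.73).

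The other named genes above 0 were close to it. Cpeb2, a regulator of mRNA polyadenylation, had 1310 and 1217 reads in 36N and 36S (0.13, interval 0.02 to 0.25). Cmtm7 had 496 and 463 (0.13), Atf3, a stress-induced bZIP factor, 376 and 354 (0.11), and the domain over Mir5130 and the start of Kctd12 had 646 and 615 (0.10). Kdm2b, a demethylase that brings Polycomb to CpG islands, had 424 reads in each library (0.03). Other Kdm2b regions went both ways, at −0.71 (379 reads in 36N and 633 in 36S), 0.30 and 0.59. The intervals of Cmtm7, Atf3, Mir5130 and Kdm2b held 0. Nfkbie, Igfbp4 and Rassf3 lay between 0.00 and 0.02. The clone-named AC073553.1 lies in the immunoglobulin heavy chain locus (Igh in RefSeq), with 1080 reads in 36N and 690 in 36S (0.67, interval 0.53 to 0.81).

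At the low end, Tmcc2 had the largest deficit. TMCC2 is a coiled-coil membrane protein, and its domain lay at an internal start (chr1:132364201-132368100) with 163 reads in 36N and 873 in 36S (42.6 and 223.8 per kb), a difference of −2.39 (−2.64 to −2.15). Chid1, which encodes a chitinase-domain protein, had 197 and 887 reads in 36N and 36S (−2.14, interval −2.37 to −1.92), while a further region inside Chid1 lay at −0.82 (−1.07 to −0.59). Atp1b2, a beta subunit of the sodium pump, had 195 and 716 reads (−1.85, interval −2.09 to −1.62). Epor, the erythropoietin receptor gene, had 182 and 628 (chr9:21960751-21964650; −1.76, interval −2.01 to −1.52). These 4 domains held 42.6 to 53.0 reads per kb in the 36N library, against 161.0 to 223.8 in the 36S library.

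The next lowest named genes stood between −1.76 and −1.45. Abcg4, a sterol transporter, had 234 reads in 36N and 767 in 36S (−1.69). Abcb6, a porphyrin transporter, had 191 and 570 (−1.55), and Atp7b, a copper pump, had 238 and 692 (−1.51). Arhgef25, an activator of small GTPases, had 164 and 564 reads in 36N and 36S (−1.76). Dpf3, a BAF subunit that reads acetylated histones, had 296 and 925 (−1.62), and 3 further Dpf3 regions of 1500 bp or more lay at −1.14 to −1.43. Shorter Dpf3 regions, with fewer reads, lay at 0.10 and −0.48. Ccrl2, an atypical chemoattractant receptor, had 316 and 877 reads in 36N and 36S, and the domain assigned to Olfr56 had 288 and 799, both at −1.45. The 11 described here had intervals wholly below −1.

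**Figure D4:**
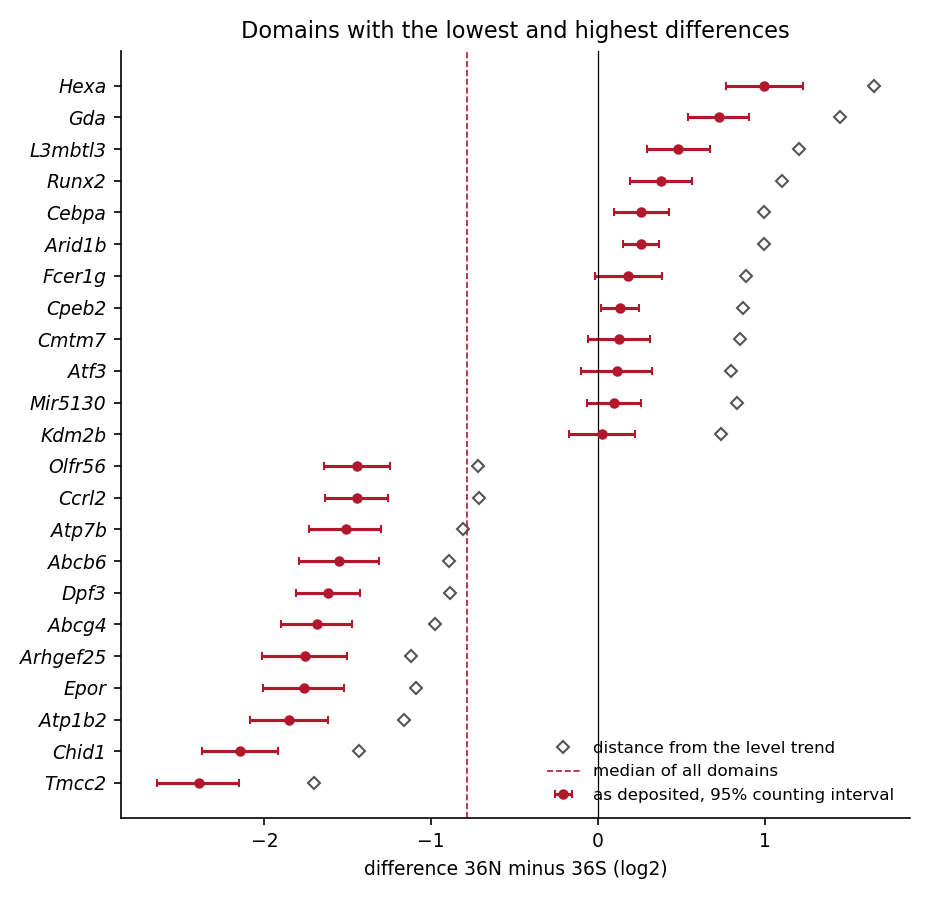
Difference 36N minus 36S (log2) of the 12 highest and 11 of the 12 lowest named domains, as deposited with 95% counting intervals (red), beside the distance from the level trend (open diamonds). Hexa at 0.999 is the highest and Tmcc2 at −2.39 the lowest; the dashed line is the median of all domains, −0.78.

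Gene groups were compared by how many of their genes with a region had a domain, beside 644 of 10268 gene symbols (6.27%). Splicing and RNA-binding genes had domains at 11 of 26, ribosomal protein genes at 15 of 53, chromatin regulators at 17 of 66, cell cycle genes at 8 of 33, immediate early genes at 5 of 14 and blood transcription factors at 11 of 55. Interferon response genes had domains at 4 of 31, cytokine signal inhibitors at 3 of 34, leukemia and tumour suppressor genes at 4 of 34, and Hox genes at 0 of 6. Gfi1 itself had a region of 750 bp only, with 32 reads in 36N and 28 in 36S, and no region was assigned to Gfi1b. In the paragraphs that follow, the share of all domains lower by 1 log2 unit (18.4%) and of all domains above the trend (41.1%) are the values to read the groups against.

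Among blood transcription factors, 8 of the 11 domains lay above the trend and 0 were lower by 1 log2 unit, with a median difference of −0.42. Beside Runx2 and Cebpa, Foxp1 had 873 reads in 36N and 955 in 36S (−0.10, interval −0.24 to 0.03). Sfpi1, which encodes the myeloid and B cell factor PU.1, had 765 and 873 (−0.16), and Irf1, an interferon-induced factor, had 394 and 457 (−0.19). Bach1, a heme-binding repressor, was lowest with 486 and 937 reads in 36N and 36S (−0.92), and Stat3 and Stat5b, which carry cytokine signals, lay at −0.84 and −0.77. Listed targets of GFI1 had 5 domains, at Cebpa, Sfpi1, Id1 (−0.42), S100a9 (−0.45) and Cdkn1b (−0.66), a cell cycle inhibitor gene. Each of these 5 lay above the trend, and 3 of them are also on the blood transcription factor list. Monocyte markers held 0.0735% of the reads in regions in 36N and 0.0406% in 36S (7 of 11 with a region), and granulocyte markers 0.0781% and 0.0621% (8 of 13). The domain assigned to Cx3cr1 but over Csrnp1 gives 527 of the 2419 monocyte reads in 36N and 552 of 2024 in 36S. The S100a9 and Ngp domains give 614 and 484 of the 2571 granulocyte reads in 36N, and 853 and 738 of 3098 in 36S. The shares are therefore not independent of these domains. The part of such cells in these differences was not tested.

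Chromatin regulators lay between −1.04 and 0.26, with a median of −0.77, close to that of all domains. Smc3, a cohesin subunit, had 464 reads in 36N and 975 in 36S (−1.04) and was the only one of the 17 lower by 1 log2 unit. Setd2 and Suz12, a methyltransferase of lysine 36 and a Polycomb subunit, lay at −0.95 and −0.94. Kdm2a, the paralog of Kdm2b, had 1106 and 1534 reads (−0.45). Of the deacetylase partners, Ncor1 lay at −0.91 and Rcor1, which joins LSD1 to deacetylases, at −0.80 (881 and 1567 reads in 36N and 36S). Above the trend lay 8 of the 17.

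Lists of cell division, translation and RNA genes had medians within 0.10 of that of all domains. Cell cycle genes had a median of −0.88, with 1 of 8 above the trend and 2 lower by 1 log2 unit. The 2 were Ccnd2, a D-type cyclin, with 243 reads in 36N and 528 in 36S (−1.09), and Mcm6, a helicase subunit of replication, with 385 and 819 (−1.06). Ribosomal protein genes had a median of −0.84, with Rpl27 lowest (364 and 810 reads in 36N and 36S; −1.13) and Rps9 highest (521 and 676; −0.35). Splicing and RNA-binding genes had a median of −0.75, with Ncl, the nucleolin gene, lowest at −1.01 and Fbl, the fibrillarin gene, highest at −0.45. Ribosomal protein genes have processed copies in the genome, and reads from these cannot be told apart here. Histone genes (4 domains) lay between −0.75 and −0.39, and heat shock genes (3 domains) between −0.74 and −0.69.

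Among signalling genes, values again lay on both sides of the median of all domains. Of the immediate early genes, Atf3 lay at 0.11, Fos at −0.51 (561 reads in 36N and 811 in 36S), and Gadd45a, a stress response gene, at −0.95 (421 and 830). The receptors with a domain were Ifngr2 (−0.76), Igf1r (−0.85) and Epor (−1.76). Among cytokine signal inhibitors Pias4 lay at −1.05, Ptpn1 at −0.49 and Nfkbie at 0.02. Jak2, the kinase behind the erythropoietin receptor, had 733 and 1460 reads in 36N and 36S (−0.97). Stem and progenitor genes had domains at Msi2 (−0.98), Cd44 (−0.93) and Mllt3 (−0.44), and MHC genes at H2-D1 (−0.73). Of 4 interferon response genes with a domain Parp14 lay at −1.08, Psmb9 at −0.98, Ifih1 at −0.93 and Irf1 at −0.19.

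**Figure D5:**
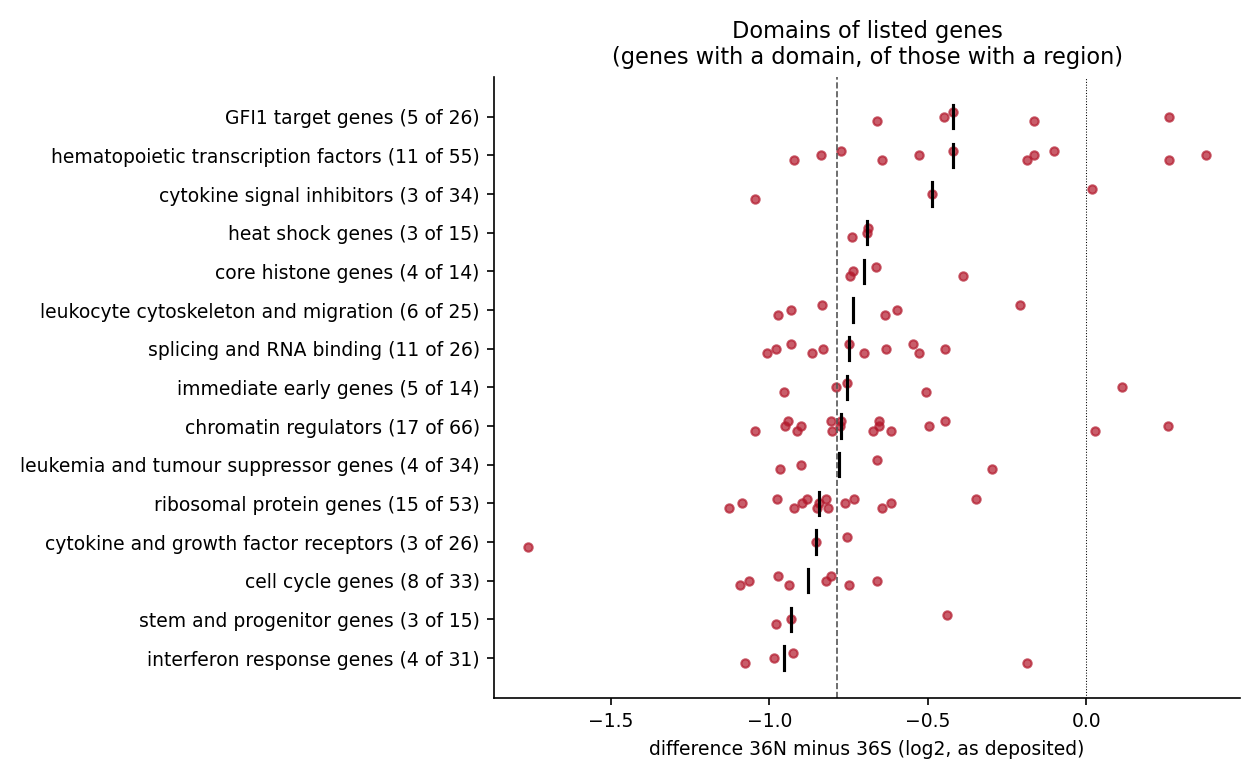
Difference 36N minus 36S (log2, as deposited) of each domain whose assigned gene is on a list, for lists with 3 domains or more; black bars are list medians and the dashed line the median of all domains, −0.78. Blood transcription factors and GFI1 targets have medians of −0.42, and interferon response genes −0.95.

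Part of the listed cell type markers had a region, from 2 of 9 B cell markers to 5 of 7 megakaryocyte markers. Domains among them were few in number. Of the erythroid markers with a region on these chromosomes 1 of 6 had a domain (Epor), of the granulocyte markers 2 of 8 (Ngp and S100a9), and of the monocyte markers 1 of 7, assigned to Cx3cr1 but over Csrnp1. No T cell, B cell, NK cell, megakaryocyte, mast cell, dendritic cell or stromal marker had one. Erythroid markers held 0.0388% of the reads in regions in 36N and 0.0699% in 36S, over 6 of 14 with a region, among them Hba-a2 and Hbb-b1. T cell markers held 0.0167% and 0.0289% in 36N and 36S (8 of 13), and B cell markers 0.00346% and 0.00212% (2 of 9), with no region at Cd79a, Pax5 or Ms4a1. The erythroid and T cell shares were lower in 36N, and the B cell share was higher. The Epor domain was lower in 36N too, as were 627 of all 645 domains. Epor is itself 1 of the 6 markers and gives 182 of their 1276 reads in 36N and 628 of 3487 in 36S, so the share is not independent of it; the part of such cells in these differences was not tested.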

How the data were processed

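H3K9ac ChIP-seq of 2 libraries, 1 per genotype, was used as deposited. The authors' deposited table gives a log2 value per library for each region of a set common to both libraries. Per the submitters' processing notes the build was mm10 and the tools were STAR 2.5.0c, CASAVA 1.8.2 and SAMtools, with no role given for any. The calling, merging and gene assignment of regions are not described in these notes or the labels. STAR is a spliced aligner, and how it treated reads with many matches bears on repeats. Taken out of log2, 36S values were whole reads and 36N values whole reads times 1.0186, within 0.01 reads, except 13 regions of the 36S library at a floor that stands for 0. The values were not divided by length, so levels of regions are compared per kb.

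The difference is the 36N minus the 36S log2 value as deposited. Its 95% interval was taken from the reads of both libraries by the exact Clopper-Pearson method, given their sum; reads have no molecular identifiers, and the interval covers counting error only. Calls use a size of 1 log2 unit, not a test. The level trend is a lowess fit (fraction 0.3, autosomal regions, domains included; statsmodels 0.14.6, Python 3.11.15). Starts, gene spans and promoters are from RefSeq tables on GRCm38.p6, the assembly of mm10; 623 of 645 domains (96.6%) matched by symbol, and the start table does not hold every gene. The script was tested on simulated reads.

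Named genes were, among domains with a gene name, the 10 longest, the 10 densest, the 12 highest and the 12 lowest by difference, the longest, highest and lowest of each list, Gfi1 and Gfi1b, and domains at the length minimum. Other list members, and the genes named for CpG-poor starts, compact length, starts outside the domain or values between 0.00 and 0.02, were chosen after their values were seen, as were the clone-named domains. Of the genes the rule takes, 1 of the 12 lowest and some list members are not reported here. The domains, the lists and the rule were chosen with earlier results of these data known. Alternatives were the level trend, centring at the median over regions, quantile normalization, other lengths and sizes, a level minimum, all chromosomes, any orientation, 1 domain per symbol, and starts within 500 bp. A trend on reads per kb, leaving out the 2 densest domains, and domains with a start only were added after seeing the data.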

Additional observations from a re-analysis of the deposited data

How the results depend on the processing

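The lower count, 119 of 645 domains, moved with scaling: 18 relative to the median region, 5 relative to the level trend, 7 after quantile normalization and 12 relative to a trend on reads per kb. The higher count, 0, became 3, 5, 5 and 4. The median difference of −0.78 became −0.39, −0.042, −0.062 and −0.12. A minimum of 3000 bp gave 384 lower and 6 higher, and 4500 bp gave 2 lower and a median of −0.66. A size of 0.58 gave 518 lower and 3 higher, and 1.5 gave 13 lower. Among domains at or above the median level 35 were lower. All chromosomes (155), any orientation (120), 1 domain per symbol (119), leaving out the 2 densest (119) and domains with a start (96) stayed within 1.5 times 119, with 0 higher in each. Starts within 500 bp left the share at 82.9%. The 24 highest and lowest named genes kept their direction under centring, level trend and quantile normalization. They were picked as the extremes of this same difference, so a kept direction says little. Under each of these scalings all 24 moved outside their counting intervals. No paired analysis was possible because each genotype has 1 library, and no library could be left out. Each domain held at least 131 reads in 36N and 233 in 36S; depth limits counting error only, and the spread between animals is not measured here. The cause of these shifts was not tested.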

Other observations

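Domains over genes of heme and iron handling, grouped after their values were seen, lay mostly at the lower end, so that their direction is a description of the choice as much as of the genes. The domain over Fam210b, a mitochondrial protein gene, had 245 reads in 36N and 757 in 36S, a difference of −1.60 (−1.81 to −1.39). Hscb, a chaperone of iron-sulfur cluster assembly, had 255 and 621 (−1.26), and its domain also lies over Chek2. Steap3, a ferrireductase of the transferrin cycle, had 294 and 663 reads in 36N and 36S (−1.15). Ncoa4, the receptor for ferritin breakdown, had 416 and 899 (−1.09), and Fth1, the ferritin heavy chain gene, had 461 and 993 (−1.08). Slc25a28 and Riok3 lay at −0.73 and −0.57. These values stand beside the lower erythroid marker share in 36N given above (0.0388% against 0.0699% of the reads in regions), whose part was not tested.

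Domains over interferon-inducible genes outside the list, also grouped after their values were seen, went both ways from the median of all domains. Lgals9 had 307 reads in 36N and 818 in 36S (−1.39), Igtp had 369 and 903 (−1.26), and the domain over Dtx3l and Parp9, a ubiquitin ligase and its partner, had 443 and 1058 (−1.23). Trafd1 had 404 and 754 reads in 36N and 36S (−0.87). The domain over Sp100, a nuclear body protein gene, lay at −0.65, and that over Cgas, the DNA sensor gene, lay at −0.05 (423 and 445).

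Of the 152 symbols that had a domain and another region, 87 had 50 reads or more in both libraries and regions, and at 51 of them domain and other region lay on the same side of the level trend. The other region taken was the one with the highest mean level. Median level-adjusted differences were −0.03 at these domains and −0.20 at the other regions, and the share of pairs on the same side without any link was not computed. The level-adjusted differences of the pair gave a Pearson r of 0.21 (Spearman rho 0.17) across these genes, which share libraries and are no replicates.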
